A study of Homo sapiens with 4 samples.

Results

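The immediate early transcription factors FOS, FOSB, FOSL1, JUN, JUNB, EGR1, EGR3, ATF3, NR4A1 and MYC were followed in the human glioma line U87MG, a standard laboratory line, carrying either the vector PC-490, made to overexpress the microRNA miR-490, or the control vector (PCDNA, PCDNA3.1 (+) in the title). These 10 genes, of 18132 on the arrays, were chosen by family name with the fold changes of the same arrays already known, so their differences are given as a description, with no test. Every probe set that the platform annotation gives to exactly 1 of these genes was kept, 42 of 49293 in all. Total RNA, 100 ng per array, was taken 48 h after transfection and hybridised to PrimeView 3' expression arrays, 2 with the miR-490 vector and 2 with the control vector. Both groups were transfected, untransfected cells were not analysed here, and the labels do not say whether the arrays came from separate cultures, so the spread between replicates may be technical.

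Immediate early genes are transcribed within minutes of a growth factor or stress signal, without new protein synthesis. Their products include the FOS and JUN proteins, which pair through leucine zippers into the dimer AP-1, the zinc finger factors of the EGR family, the orphan nuclear receptor NR4A1 and the growth regulator MYC. In glioma cells, where receptor tyrosine kinase and ERK signalling is often active, several of these factors are made continuously rather than as a short pulse. Serum response factor and its ETS-family partners bind the CArG box, and CREB and ATF proteins bind the cAMP response element, to start transcription of many of these genes.

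The agent itself is shown because its seed, bases 2 to 8 from the 5′ end, sets which messenger RNAs a microRNA can pair with. Both arms of the miR-490 hairpin come from chromosome 7, plus strand, in the RefSeq table for GRCh38.p14, the 5p arm at chr7:136903205-136903224 and the 3p arm at chr7:136903242-136903263. The seeds, in capitals, differ between the arms.
hsa-miR-490-5p: cCAUGGAUcuccaggugggu
hsa-miR-490-3p: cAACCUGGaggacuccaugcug
The labels do not say which arm the plasmid was meant to deliver, and the level of either arm was not analysed here.

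The promoters of FOS, EGR1 and FOSB are shown because single probe sets of the first pair had the widest differences between the groups among the 42, 0.67 and 0.59 on the log2 scale, and the groups of FOSB, a close relative of FOS, overlapped. On the brightest set of each gene ATF3, at 0.39, was wider than FOS, at 0.34. Each run is the 250 bases before the RefSeq start of the gene, on the plus strand in GRCh38.p14. Capitals mark the CArG box and the core of the cAMP response element, TGACG or its reverse complement CGTCA.
FOS, chr14:75278578-75278827: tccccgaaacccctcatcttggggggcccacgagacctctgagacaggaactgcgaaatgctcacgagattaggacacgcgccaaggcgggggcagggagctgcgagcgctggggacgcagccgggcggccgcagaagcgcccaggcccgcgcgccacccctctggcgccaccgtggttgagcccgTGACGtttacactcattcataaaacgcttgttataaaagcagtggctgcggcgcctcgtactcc
EGR1, chr5:138465229-138465478: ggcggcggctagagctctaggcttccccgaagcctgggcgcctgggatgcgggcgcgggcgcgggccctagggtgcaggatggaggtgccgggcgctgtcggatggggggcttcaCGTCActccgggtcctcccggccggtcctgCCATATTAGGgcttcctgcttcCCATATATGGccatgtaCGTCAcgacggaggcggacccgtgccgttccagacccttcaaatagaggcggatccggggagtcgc
FOSB, chr19:45467746-45467995: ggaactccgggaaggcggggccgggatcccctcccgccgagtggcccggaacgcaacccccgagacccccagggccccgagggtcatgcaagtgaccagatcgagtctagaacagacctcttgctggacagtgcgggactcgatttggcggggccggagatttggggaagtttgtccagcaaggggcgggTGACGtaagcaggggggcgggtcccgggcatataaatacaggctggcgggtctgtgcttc

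The FOS window held 1 TGACG, at bases -64 to -60 from the start, and FOSB held 1 at -60 to -56. The EGR1 window held 2 CArG boxes, at -105 to -96 and -83 to -74, and 2 copies of the reverse complement CGTCA, at -135 to -131 and -66 to -62. RefSeq windows were found for 7 of the 10 genes, 9 windows in all, since ATF3 and NR4A1 have 2 each. TGACG on either strand was in 5 of these 9 windows (those of FOS, FOSB, JUN, JUNB and EGR1), and in 21.2% of all 35116 windows of the same length. The CArG box was in 1 of the 9, that of EGR1, and in 1.16% of all windows. The full element TGACGTCA, the AP-1 site TGACTCA, the EGR site GCGGGGGCG and the E-box CACGTG were in 0 of the 9 windows, and in 1.65%, 4.2%, 4.72% and 6.34% of all windows on either strand. TGACGTCA contains TGACG. The ETS core CCGGAA was in 2 of the 9, those of FOSB and NR4A1, and in 14.5% of all windows. These matches describe letters in a window, not binding. Bases farther upstream were not searched. A window without a match, such as that of FOS for the CArG box, therefore does not show that the gene lacks the site.

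On every probe set above the median level of the platform, FOS (1 set of 4) and EGR1 (3 of 6) were higher with miR-490. ATF3 (3 of 7) and NR4A1 (1 of 7) were likewise higher, while FOSL1 and MYC were lower and JUN was split. FOSB and JUNB were each higher by 0.08 on their 1 set above that level, with overlapping groups. EGR3 had no set above that level and lower means on all 4 below it. Among sets below that level, 2 of EGR1, 2 of ATF3 and 1 of NR4A1 had lower means. The level is a mean over both groups, so a set can pass through its higher group alone. The NR4A1 set did so, at 5.375 with miR-490 and 5.115 in controls, and so did 1 ATF3 set, at 5.36 and 5.14. On the probe set with the highest mean, FOS was at 1.27 times the control level, EGR1 at 1.32, ATF3 at 1.31 and NR4A1 at 1.2 times, against 0.895 for FOSL1 and 0.877 for MYC. Over all 49293 probe sets, 0 passed an adjusted p of 0.05 (limma with Benjamini-Hochberg adjustment, 0% called, smallest adjusted p 0.9), 2537 had an unadjusted p under 0.05, and the widest difference of any probe set was 1.6-fold. Levels are log2 values after RMA, with the median probe set at 5.16. Levels of different probe sets are not set against each other here, because each has its own probes.

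**Figure D1:**
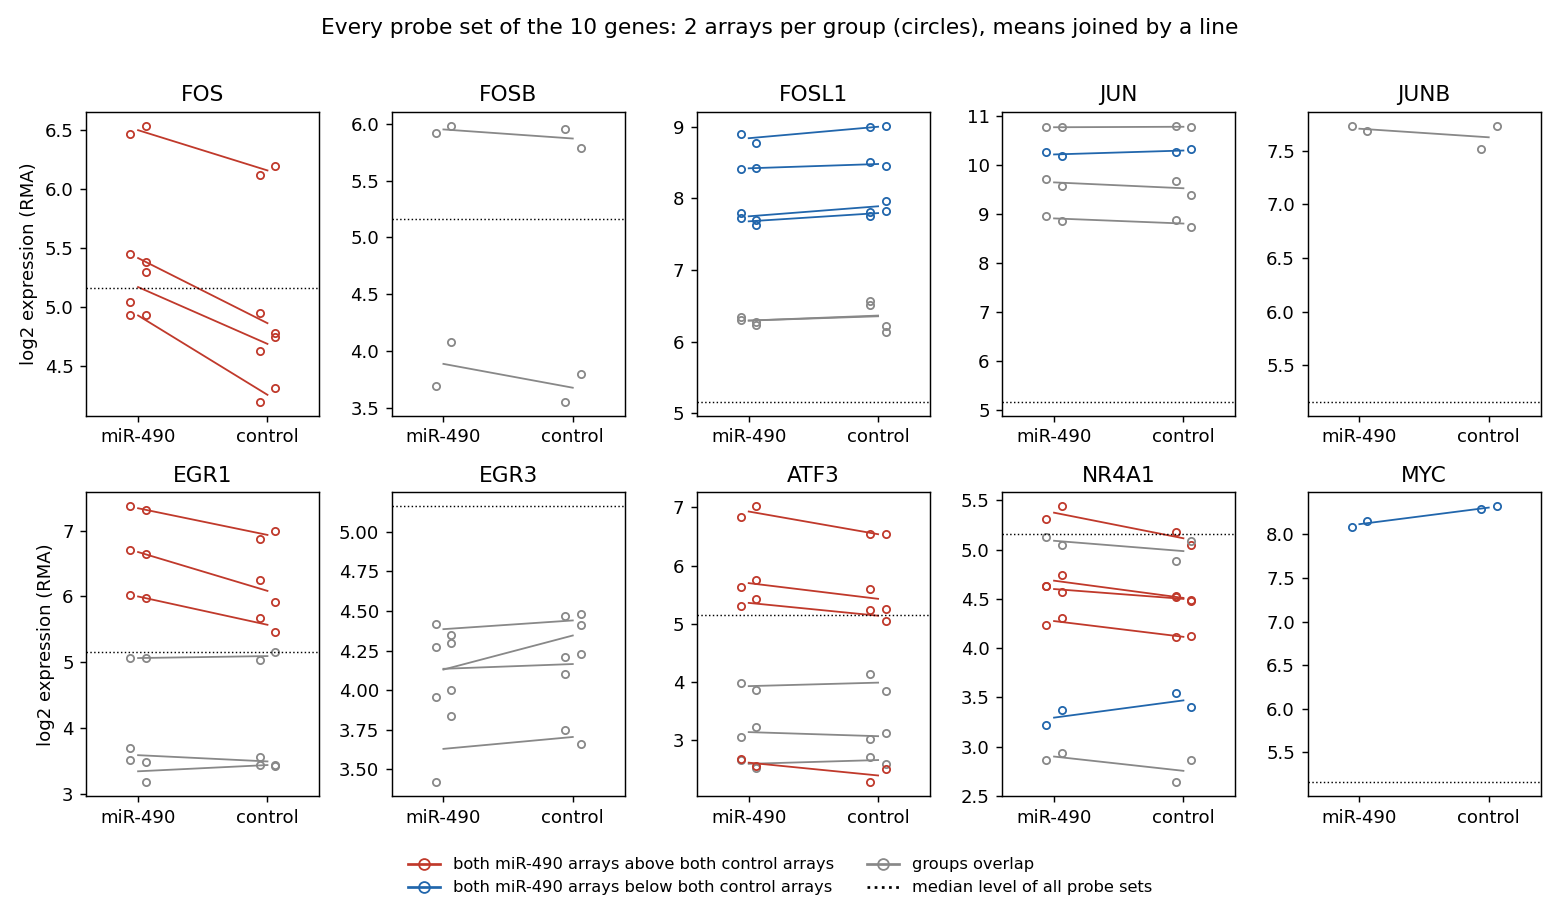
Log2 expression (vertical axis, RMA values, own scale for each gene) of each of the 42 probe sets of the 10 genes on the 2 miR-490 arrays and the 2 control arrays. Circles are arrays, lines join the group means, red marks probe sets whose miR-490 arrays both lie above both control arrays, blue those below, grey those that overlap, and the dotted line is the median level of all probe sets, 5.16. All 4 FOS lines are red, 4 of 6 FOSL1 lines are blue and all 4 EGR3 lines are grey.

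FOS, the AP-1 subunit that binds DNA only as a partner of JUN proteins, had 4 probe sets, and both miR-490 arrays lay above both control arrays on all of them. On its brightest set the miR-490 arrays read 6.46 and 6.53, against 6.12 and 6.19 on the control arrays, a log2 difference of 0.34 ± 0.0711 (SE of the fit). The next set read 5.45 and 5.38 with miR-490, against 4.95 and 4.78 in control arrays, a difference of 0.55 ± 0.0871. The other two sets differed by 0.48, with 5.04 and 5.30 against 4.63 and 4.75 in controls, and by 0.67, with 4.93 on both miR-490 arrays against 4.20 and 4.32 in controls. Only the brightest set lay above the platform median, and in each set the difference was larger than the gap between the replicates of either group. The sets with the suffix a_at, whose probes match transcripts of 1 gene, gave 0.55 and 0.67, and those with s_at, whose probes can match other transcripts, gave 0.34 and 0.48.

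FOSB, a FOS relative that also pairs with JUN proteins, had 2 probe sets and overlapping groups on both. Its brighter set read 5.92 and 5.98 on the miR-490 arrays, against 5.95 and 5.79 on the control arrays, a log2 difference of 0.08 ± 0.0843. The dimmer set read 3.69 and 4.08 with miR-490, against 3.55 and 3.80 in controls. On both sets a gap between replicate arrays was wider than the difference between the groups.

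FOSL1, which encodes FRA1, a FOS-family protein linked to invasion and the mesenchymal state of tumour cells, had lower means with miR-490 on all 6 of its probe sets, all above the platform median. The brightest set read 8.90 and 8.78 on the miR-490 arrays, against 8.99 and 9.01 on the control arrays, a log2 difference of -0.16 ± 0.0747 (SE). On 4 sets the miR-490 arrays both lay below the control arrays, and the differences over the 6 sets ran from -0.16 to -0.06. The sets that overlapped read 6.31 and 6.28 against 6.51 and 6.22 in controls, and 6.35 and 6.24 against 6.57 and 6.14 in controls. In those, control replicate 1 lay above and control replicate 2 below both miR-490 arrays. FOS and FOSL1 therefore had opposite signs on every probe set, and the difference between them was not tested.

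JUN, the AP-1 subunit that can also bind DNA as a pair of its own, was bright on all 4 of its probe sets, with levels from 8.73 to 10.79. The brightest set read 10.77 and 10.76 on the miR-490 arrays, against 10.79 and 10.76 on the control arrays, a log2 difference of -0.01 (95% interval -0.178 to 0.158). The other sets gave -0.08, 0.12 and 0.105, and no set differed by more than the wider replicate gap. JUNB, a JUN relative with weaker transforming activity, had 1 set, with an x_at suffix that marks probes shared with other sequences. It read 7.73 and 7.68 with miR-490, against 7.52 and 7.73 in controls, a difference of 0.08 (95% interval -0.167 to 0.327). The groups overlapped for JUNB and on 3 of the 4 sets of JUN.

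EGR1, a zinc finger factor driven by serum response factor, had 6 probe sets. On the 3 sets above the platform median the miR-490 arrays lay above the control arrays, and on the 3 sets below it the groups overlapped. The brightest set read 7.37 and 7.31 on the miR-490 arrays, against 6.87 and 7.0 on the control arrays, a log2 difference of 0.405 ± 0.0787 (SE). The next read 6.71 and 6.64 with miR-490, against 6.25 and 5.92 in controls, a difference of 0.59 ± 0.127, and the third 6.02 and 5.98 against 5.68 and 5.46 in controls, 0.43 ± 0.0965. Replicates with miR-490 lay within 0.07 of each other on these sets, whereas those of the control vector lay up to 0.33 apart. The 3 dimmer sets had differences of -0.03, 0.095 and -0.095, each with a replicate gap at least as wide.

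EGR3, a relative of EGR1 that binds the same kind of site, lay below the platform median on all 4 of its probe sets. The brightest set read 4.42 and 4.35 on the miR-490 arrays, against 4.47 and 4.41 on the control arrays, a log2 difference of -0.055 (95% interval -0.238 to 0.128). All 4 means were lower with miR-490, from -0.215 to -0.03, and the groups overlapped on every set. RMA compresses differences at such low signals, so these values bound the difference of EGR3 only loosely.

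ATF3, a bZIP factor induced by stress through ATF4 and by mitogens, had 7 probe sets. The brightest set read 6.84 and 7.02 on the miR-490 arrays, against 6.54 on both control arrays, a log2 difference of 0.39 ± 0.0863 (SE). The other 2 sets above the platform median read 5.64 and 5.76 against 5.60 and 5.26 in controls, and 5.30 and 5.42 against 5.23 and 5.05 in controls. On these the lower miR-490 array exceeded control replicate 1, the higher control array, by only 0.04 and 0.07. Of the 4 dimmer sets 1 also had its groups apart, at 2.67 and 2.56 against 2.28 and 2.51 in controls, and the other 3 had differences of -0.06, 0.07 and -0.065 with overlapping groups.

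NR4A1, an orphan nuclear receptor induced by calcium and mitogens, had 7 probe sets, of which 1 lay above the platform median. That set, with an x_at suffix, read 5.31 and 5.44 on the miR-490 arrays, against 5.18 and 5.05 on the control arrays, a log2 difference of 0.26 ± 0.0871 (SE). The means were higher with miR-490 on 6 sets and lower on 1, from -0.175 to 0.26. The groups were apart as higher on 4 sets and as lower on 1, which read 3.22 and 3.37 against 3.54 and 3.40 in controls. All NR4A1 values lay between 2.64 and 5.44, and 6 of its 7 sets were below the platform median.

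MYC, which drives growth and ribosome synthesis as a dimer with MAX, had 1 probe set. It read 8.08 and 8.15 on the miR-490 arrays, against 8.29 and 8.32 on the control arrays, a log2 difference of -0.19 ± 0.0681 (95% interval -0.368 to -0.0119). MYC was chosen with this difference known, so the unadjusted interval is not read as a test. Both miR-490 arrays lay below both control arrays, and the difference was wider than the replicate gaps of 0.07 and 0.03. With no further probe set, this value rests on 1 group of probes.

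Over the 42 probe sets, the miR-490 arrays both lay above the control arrays on 15 (35.7%) and both below on 7 (16.7%), where all probe sets gave 15.6% and 15.6%. With the brightest set of each gene, 4 of 10 genes were apart as higher (FOS, EGR1, ATF3 and NR4A1) and 2 as lower (FOSL1 and MYC), where all 18132 genes gave 16.5% and 16.1%. Because the genes were chosen with this comparison known, nothing is read from these shares. The median log2 difference of the 10 genes was 0.08, beside 0.005 for all genes. In 17 of the 42 sets the group difference exceeded the replicate gap of both groups. No share over all probe sets is given for this count, so nothing is read from it either. The median replicate gap was 0.10 for the miR-490 arrays and 0.13 for the control arrays.

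**Figure D2:**
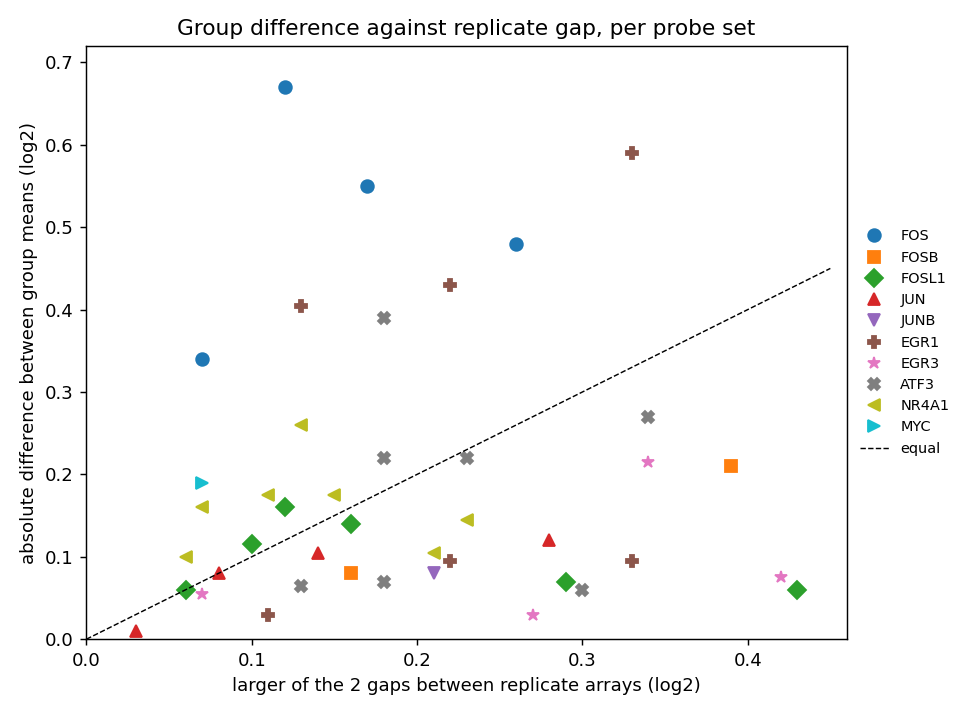
Absolute log2 difference between the group means (vertical) against the wider of the 2 gaps between replicate arrays (horizontal) for each of the 42 probe sets, by gene. The 17 points above the dashed line of equality include all 4 FOS sets, 3 of EGR1, 5 of NR4A1 and the MYC set, and no set of JUN, JUNB, FOSB or EGR3. The genes were chosen with this comparison known, so nothing is read from this count.

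**Figure D3:**
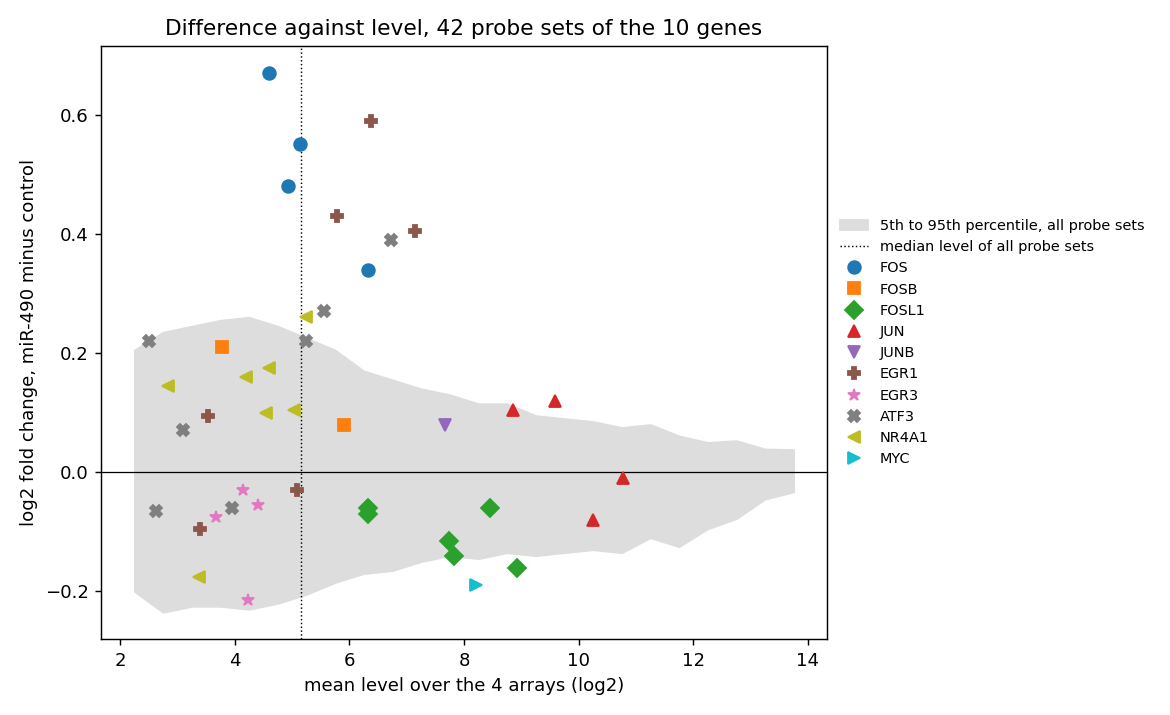
Log2 fold change, miR-490 minus control (vertical), against the mean log2 level over the 4 arrays (horizontal) for the same 42 probe sets. The grey band is the 5th to 95th percentile of all probe sets in steps of 0.5 in level, and the dotted line is the median level, 5.16. The FOS sets and the 3 brighter EGR1 sets, from 0.34 to 0.67, lie above the band, and the EGR3 sets lie inside it. Also above it are ATF3 sets at 0.39 and 0.27, the NR4A1 set at 0.26 and a JUN set at 0.12. The MYC set, at -0.19, and the brightest FOSL1 set, at -0.16, lie below it.

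Bulk RNA gives an average over the culture, so a change in a few cells, or in the number of transfected cells, and a change in every cell cannot be told apart. Against the platform median of 5.16, which places a probe set only roughly, 7 of 8 markers of mesenchymal glioma lines lay above it, among them VIM and CD44, and NES lay below. Of 6 astrocyte and oligodendrocyte markers, GFAP, SLC1A2 and SOX10 lay above it, at 5.71, 5.60 and 5.33, and AQP4, OLIG2 and MBP below. Of the other markers, 2 of 4 endothelial genes (VWF and KDR), 2 of 4 neuronal genes (SNAP25 and GAD1) and 0 of 5 epithelial genes lay above it. Of 6 leukocyte markers only CD68, which many cell types make, was above the median, and PTPRC, which all leukocytes carry, was at 2.54. Summed over these 6 genes the log2 levels were 26.45 and 26.67 on the miR-490 arrays, against 26.96 and 27.40 on the control arrays. Of the 6, 5 were lower. The astrocyte and oligodendrocyte sums were also lower, at 25.88 and 26.22 against 26.28 and 26.3 in controls (5 of 6 lower). So were the neuronal sums, at 21.37 and 21.66 against 21.74 and 21.8 in controls (3 of 4 lower). The mesenchymal and endothelial sums overlapped between the groups, and the epithelial sums met at 17.43. Apart from CD68 the leukocyte markers lay below the median, so no leukocyte difference is read from these sums. The part of these differences in the values above was not tested. Replicate arrays correlated at r = 0.9979 for miR-490 and 0.9975 for control, and arrays of different groups at 0.9976 to 0.9979, across probe sets, which are not independent replicates.

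The genes that act before and after these factors were read from 10 lists with 149 genes in all; 136 had a probe set and 13 are not analysed here. With limma over all probe sets 0 of the 136 passed the adjusted threshold in either direction (smallest adjusted p 0.9), and 20 had an unadjusted p under 0.05, 1 higher and 19 lower, where 4.77% of all 18132 genes had one on the same kind of probe set. Of the 20, 10 were in the NF-kB list. Counts of higher and lower means below are therefore descriptions of values. The lists were also chosen with earlier results of these data known, so nothing is read from their counts or shares. All lists share the 4 arrays with the 10 factors, so their differences are set side by side and not correlated.

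Among the inputs, SRF, the serum response factor, its partners of the ETS family and the kinases of the ERK, JNK and RSK cascades had 7 genes higher and 7 lower of 14, with a median log2 difference of -0.003. SRF read 7.28 and 7.20 on the miR-490 arrays, against 7.09 and 7.22 on the control arrays, and its other probe set had the opposite sign. MAPK8, which encodes the JUN kinase JNK1, read 6.33 and 6.43 with miR-490, against 6.46 and 6.59 in controls. MRTFA, an actin-sensing cofactor of SRF, read 6.94 and 6.87 against 6.81 on both control arrays. Only the groups of MAPK8 and MRTFA were apart among these 3, and their log2 differences were -0.145 and 0.095. The other probe sets of both genes had both signs, from -0.175 to 0.115 for MAPK8 and from -0.195 to 0.025 for MRTFA.

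Other immediate early genes had 8 higher, 10 lower and 1 equal of 19 and a median of -0.025. Groups were apart as higher for 4 and as lower for 4, where all genes gave 16.5% and 16.1%. The 4 higher ones, named after their values were seen, were the relatives EGR4 and NR4A2, at log2 differences of 0.26 and 0.15 and both below the platform median, the kinase SGK1 at 0.13 and the phosphatase DUSP1 at 0.11. TRIB1, a pseudokinase, read 7.37 and 7.13 on the miR-490 arrays, against 7.43 on both control arrays. KLF10, a TGF-beta-induced zinc finger factor, read 10.20 and 10.22 with miR-490, against 10.44 and 10.28 in controls, and KLF4 read 5.16 and 5.11 against 5.16 and 5.40 in controls. The groups were apart for TRIB1 and KLF10, both lower, while those of KLF4 met at 5.16. The ERK feedback genes, which ERK switches on to limit itself, had 4 higher, 9 lower and 1 equal of 14 (median -0.018). Their groups were apart as higher for 0 and as lower for 6, beside the same shares of all genes. SPRY2, an inhibitor of receptor tyrosine kinase signalling, read 8.18 and 8.10 with miR-490, against 8.33 and 8.31 in controls. The phosphatase DUSP5 read 7.75 and 7.67 against 7.84 and 7.88 in controls, and DUSP6, which acts on ERK, 9.84 and 9.81 against 10.05 and 9.86 in controls. These 3 genes had lower values on both miR-490 arrays, by -0.18, -0.15 and -0.13 on the log2 scale.

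AP-1 partners and relatives lay close to no difference, with 6 higher and 5 lower of 11 and a median of 0.005. FOSL2, the fourth FOS-family gene, read 8.96 and 9.09 on the miR-490 arrays, against 8.88 and 9.10 on the control arrays. ATF2 and JDP2, a bZIP activator and a repressor of AP-1, each had a log2 difference of -0.08. The 4 other ATF2 sets had both signs, from -0.375 to 0.07, and the 2 other JDP2 sets gave -0.15 and -0.13. Genes reported elsewhere as AP-1 targets had 1 higher and 14 lower of 15, with a median of -0.15. For 12 of them both miR-490 arrays lay below both control arrays, where all genes gave 16.1%. This list was chosen with earlier results of these data known, so nothing is read from that count. MMP3, the protease stromelysin-1, read 7.25 and 7.24 with miR-490, against 7.73 and 7.60 in controls, a log2 difference of -0.42. HBEGF, a ligand of the EGF receptor, read 6.84 and 6.81 against 7.15 and 7.12 in controls, a difference of -0.31, where its other probe set gave -0.095. The gelatinase MMP9 read 5.14 and 4.94 against 5.19 and 5.43 in controls. All 3, picked as the widest of the list above the platform median, lay apart from controls on the lower side. MMP9 passed that median only through the control arrays, with means of 5.31 in controls and 5.04 with miR-490.

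Several AP-1 targets also respond to NF-kB, and whether this bears on their values was not tested. The NF-kB list had 16 of 16 genes lower, where 8574 of all 18132 genes were lower. It had the lowest median of the 10 lists, -0.325. CXCL2, a neutrophil chemokine, read 8.25 and 8.10 on the miR-490 arrays, against 8.84 and 8.67 on the control arrays. The other two with the widest differences above the platform median, CXCL1 and CXCL8, gave -0.51 and -0.46, although the other probe set of CXCL1 gave -0.01. The ATF4 arm, which can induce ATF3 in the integrated stress response, had 3 higher and 8 lower of 11, with a median of -0.115. PSAT1, an enzyme of serine synthesis, read 9.76 and 9.82 with miR-490, against 10.22 and 10.09 in controls, and the cystine transporter SLC7A11 read 8.06 and 8.11 against 8.34 and 8.45 in controls. ASNS, asparagine synthetase, read 9.69 and 9.64 against 9.95 and 9.88 in controls. Further sets of PSAT1, 7 in all, and of ASNS, 3 in all, had the same sign, whereas the 2 further sets of SLC7A11 gave -0.18 and 0.03. The 3 higher genes of the list, named after their values were seen, were PPP1R15A, a phosphatase subunit of the same response, at 0.135 with its groups apart, DDIT4 at 0.09 and VLDLR at 0.005, beside 0.39 for ATF3. Among the 8 lower genes, and also named after their values were seen, ATF4 itself gave -0.13 and TRIB3 -0.235, both with groups apart.

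EGR corepressors and targets had 4 higher and 5 lower of 9, with a median of -0.01. NAB2, a corepressor that EGR1 itself induces, read 7.0 and 7.12 on the miR-490 arrays, against 7.07 and 6.93 on the control arrays, and the groups overlapped. NAB1, the related corepressor, read 8.96 and 8.87 with miR-490, against 8.99 and 9.11 in controls, with lower means on all 6 of its other probe sets too. F3, tissue factor, had a log2 difference of -0.065. The partners and antagonists of MYC had 9 higher and 4 lower of 13 (median 0.055). MXD4, an antagonist that competes for MAX, read 8.17 and 8.27 with miR-490, against 8.14 and 7.95 in controls. MNT, a second antagonist, read 7.05 and 6.78 against 7.09 and 7.02 in controls, and FBXW7, the ubiquitin ligase adaptor for MYC, 7.67 and 7.69 against 7.71 and 7.91 in controls. The other MNT set gave 0.0, and the 2 other FBXW7 sets gave -0.13 and 0.035. MYC target genes had 6 higher and 8 lower of 14, with a median of -0.007 and none beyond 0.095 on the log2 scale in either direction. FBL, a nucleolar methyltransferase, read 10.71 on both miR-490 arrays, against 10.62 and 10.61 on the control arrays.

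**Figure D4:**
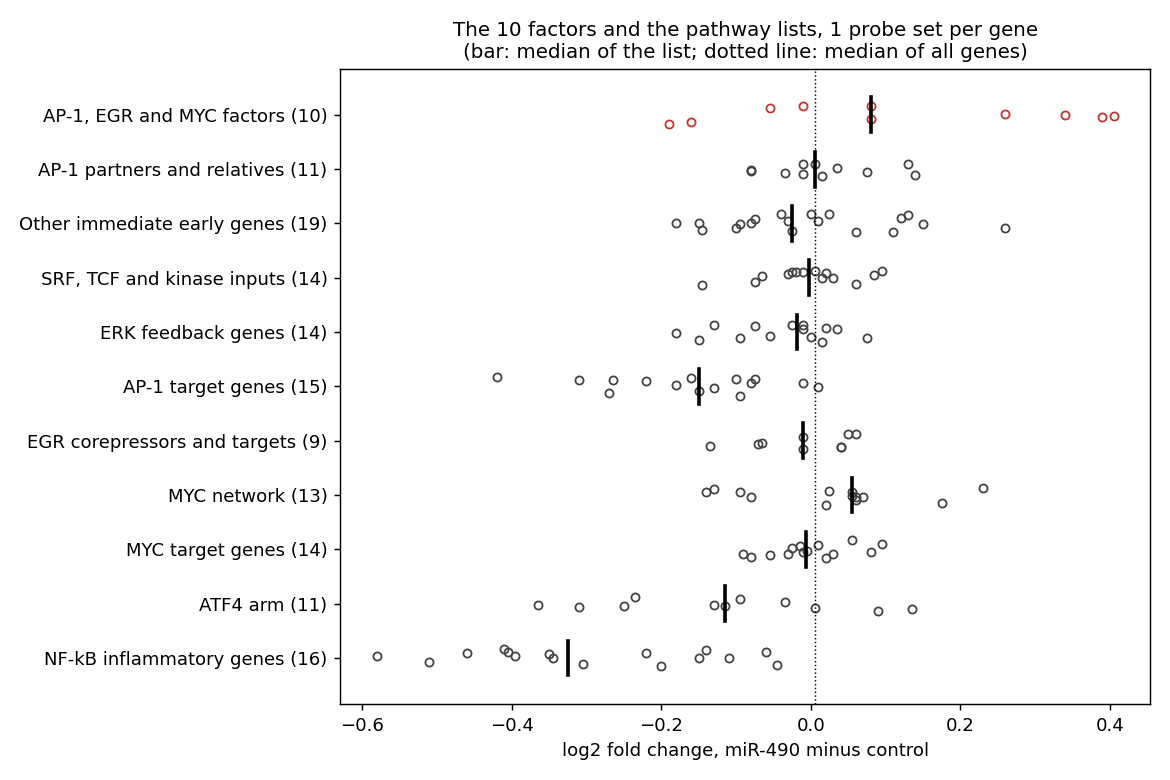
Log2 fold change, miR-490 minus control (horizontal), of the 10 factors (red) and of the measured genes of the 10 pathway lists (grey), 1 probe set per gene, with the number of genes in brackets. Black bars are list medians and the dotted line is the median of all genes, 0.005. The medians of the AP-1 target, ATF4 and NF-kB lists, -0.15, -0.115 and -0.325, lie left of the line, and that of the 10 factors, 0.08, lies right of it.

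The genes above the platform median whose values over the 4 arrays ran closest to EGR1, by Euclidean distance of centred log2 values among 10210 genes, were ANKRD16 at 0.0456, HYAL3 at 0.0728 and SPINK1 at 0.0753. ANKRD16 read 5.85 and 5.80 on the miR-490 arrays, against 5.40 and 5.53 on the control arrays. Closest to MYC were ZBED1 at 0.0141, PEA15 at 0.0218 and BET1 at 0.0245. ZBED1 read 7.38 and 7.46 with miR-490, against 7.60 and 7.64 in controls. With 4 arrays, such likeness describes these values only.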

How the data were processed

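The authors deposited 1 log2 value per PrimeView probe set and array, which the submitters' processing notes credit to RMA; which software ran it, and how, is not given in the sources used here. RMA makes the arrays' distributions alike, so a shift of most transcripts 1 way cannot be seen, and low signals are compressed. The number of arrays limits the precision (median SE of a log2 fold change 0.0842). Of 49293 probe sets, 44988 have 1 gene symbol, 1832 several and 2473 none in the platform annotation; 44961 took current symbols through the RefSeq table.

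All probe sets entered limma 3.58.1 in R 4.3.3 (lmFit and eBayes; 2 residual and 2.73 prior degrees of freedom), miR-490 minus control, two-sided, with Benjamini-Hochberg adjustment over all probe sets. A gene's level is its probe set with the highest mean. The 10 genes and all lists were chosen with earlier results of these data known. Named genes were every member and, of each list, up to 3 above the platform median with the largest absolute difference, plus the 3 nearest profiles to EGR1 and MYC. Genes said to be named after their values were seen, in the other immediate early list and the ATF4 arm, fall outside this rule. No scan date or detection call was used, and no batch was tested. Figures were drawn with matplotlib 3.10.9.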

Additional observations from a re-analysis of the deposited data

How the results depend on the processing

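No probe set passed the adjusted threshold in any of the 12 alternatives run: quantile normalisation, centred array medians, a variance trend over intensity, plain or with a robust prior, sets above the median level, 1 set per gene, the mean of a gene's sets, a replicate block, and each array left out. The smallest adjusted p among them was 0.335, with the robust prior (limma). The count at an unadjusted p under 0.05 was 2537 as reported, 1936 with the replicate block, and 1209, 1121 and 959 with sets above the median level, 1 set per gene and the mean of sets, which test fewer features. The deviations of same-numbered arrays from their group means correlated at -0.0844 across probe sets. From 2 arrays per group this cannot show whether same-numbered arrays were prepared together, and the labels do not say. With 1 array left out the count ran from 1679 (without miR-490 replicate 2) to 3048 (without control replicate 2). The count of the 10 genes with a higher mean stayed between 5 and 7.

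Of 80 alternatives for the 10 genes, 6 had the other sign, 4 of JUN, 1 of JUNB and 1 of EGR1, whose dimmest set gave -0.095. With an array left out, EGR1 gave 0.34 to 0.47, FOS 0.305 to 0.375, ATF3 0.30 to 0.48, NR4A1 0.195 to 0.325, FOSL1 -0.22 to -0.10 and MYC -0.225 to -0.155. The mean of a gene's sets gave FOS 0.51, EGR1 0.233, ATF3 0.149, NR4A1 0.11 and JUN 0.034. List medians under both scalings and with arrays left out, chosen after seeing the data, were -0.17 to -0.095 for AP-1 targets, -0.145 to -0.105 for the ATF4 arm and -0.335 to -0.265 for NF-kB. For ERK feedback genes they were -0.062 to -0.026, all lower than the -0.018 reported. Other immediate early genes gave -0.035 to -0.005. Medians nearer 0 took both signs for AP-1 partners, the SRF inputs, EGR targets, the MYC network and MYC targets.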
